A study of Mus musculus with 6 samples.

Results

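Of the 54532 genes in the deposited table, 35 were examined here as the genes of lipogenesis and cholesterol synthesis. They were taken as the rows whose Ensembl identifier carries the listed symbol in GENCODE (release M21, GRCm38), and all 35 were found. They comprised 11 genes of fatty acid synthesis and desaturation, 16 of cholesterol synthesis, the cholesterol exporters Abca1 and Abcg1, and 6 regulators. RNA from the hearts of 3 HFpEF mice and 3 chow-fed controls was sequenced, with 1 library per mouse. All mice were male C57BL/6 and were 6 to 8 weeks old at the start. HFpEF mice received a high-fat diet with 60% of kcal from fat together with L-NAME, a nitric oxide synthase inhibitor, at 0.5 g/L in the drinking water for 12 weeks, and Chow mice received standard chow and plain water. Because diet and L-NAME were always given together, their parts in any difference cannot be told apart. The labels name the tissue as heart, and the study's methods name left ventricular myocardium.

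Lipogenesis turns citrate exported from mitochondria into palmitate through acetyl-CoA and malonyl-CoA, after which elongases and desaturases shape the chain. Cholesterol synthesis starts from the same acetyl-CoA and runs through mevalonate, isoprenoid and squalene intermediates. The SREBP transcription factors, encoded by Srebf1 and Srebf2, drive both routes and are held back by sterols through Scap and Insig1, while ChREBP (Mlxipl) answers to sugars and the liver X receptor (Nr1h3) to oxysterols. The heart takes up most of its fatty acids and uses malonyl-CoA, made there largely by Acacb, to restrain their oxidation.

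The upstream sequences of Fasn and Hmgcs1 are shown because Fasn stands for the making of palmitate and Hmgcs1 for an early step of cholesterol synthesis. A further reason is that the levels of Fasn did not overlap between the groups while those of Hmgcs1 did. Each run holds the 250 bases before the transcription start in RefSeq (GRCm38.p6), 5′ to 3′ on the gene's strand, with matches to the SREBP motif TCACNCCAC (SRE), the E-box CACGTG or the CCAAT box in capitals, on either strand (ATTGG is CCAAT on the other strand). Fasn lies at chr11:120824548-120824797 on the minus strand and Hmgcs1 at chr13:119690101-119690350 on the plus strand.
Fasn: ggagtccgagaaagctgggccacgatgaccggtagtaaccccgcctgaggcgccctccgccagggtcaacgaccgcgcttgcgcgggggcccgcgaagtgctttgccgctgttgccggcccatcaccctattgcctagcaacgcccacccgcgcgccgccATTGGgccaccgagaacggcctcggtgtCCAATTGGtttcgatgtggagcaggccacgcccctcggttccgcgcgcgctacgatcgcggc
Hmgcs1: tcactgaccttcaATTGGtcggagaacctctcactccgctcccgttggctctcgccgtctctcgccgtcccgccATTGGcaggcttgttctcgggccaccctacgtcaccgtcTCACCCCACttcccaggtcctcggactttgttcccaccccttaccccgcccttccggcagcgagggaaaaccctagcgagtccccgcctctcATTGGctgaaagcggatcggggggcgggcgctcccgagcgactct
Over windows of 300 bases, from 250 before to 50 after the start, 28 of the 35 genes had at least 1 RefSeq window, in 38 windows. The SRE letters were present for 2 of the 28 genes, Hmgcs1 and Mlxipl, and for 1.44% of all 27025 genes with a window, or in 2 of the 38 windows and 1.24% of all 32851. The E-box was present for 8 of the 28 genes and 8.09% of all genes, or in 9 of the 38 windows and 7.15% of all. CCAAT was present for 21 of the 28 genes, 12 of them among the 13 cholesterol synthesis genes with a window and 5 among the 8 fatty acid genes with a window, and for 41.1% of all genes. By window, it was in 22 of the 38 and in 37.4% of all. The LXR motif DR4, which is AGGTCA repeated after a spacer of any 4 bases, was found for 0 of the 28 and for 0.0148% of all genes. With so rare a motif, its absence from a short list says little. Scd1, Scd2 and Abcg1 were among the genes without a window. No match overlapped a match to another of these motifs. A match is a description of letters only.

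Fatty acid synthesis and desaturation genes had higher levels in HFpEF hearts in 10 of 11 members by the fitted difference, which was above zero for 48.8% of all genes tested. The largest were those of Scd1, Fasn, Elovl6 and Scd2, of which Scd2 alone passed the test, whereas the differences of cholesterol synthesis genes lay on both sides of zero, between -0.62 and 0.80. Levels are FPKM after a median-of-ratios rescaling, and differences are log2 fold changes of FPKM + 0.1 fitted with limma, HFpEF minus Chow. Of the 35 genes, 34 reached an FPKM of 0.5 in at least 3 libraries and were tested. Elovl6 did so only through the HFpEF libraries, so its higher level and lack of overlap were conditions of its being tested. In Chow, Sqle reached 0.5 only in replicate 3 and Lss only in replicate 2, so both were tested partly through the HFpEF libraries. Elovl6, Sqle and Lss are counted in the results given for these genes. At a Benjamini-Hochberg adjusted p under 0.05, only Scd2 rose, which is 1 of 34, and 0 genes fell, against 0.0984% of the 14227 genes tested (0.0914% higher and 0.00703% lower). With a log2 fold change of at least 2 as well, 0.0562% of all genes and 0 of the 34 passed. An unadjusted p under 0.05 was reached by 16 of the 34 (13 higher and 3 lower), against 23.4% of all genes tested (10.2% higher and 13.1% lower). The groups did not overlap for 19 of the 34 (16 higher and 3 lower), against 35.3% of all genes tested (15.5% higher and 19.8% lower). The median log2 fold change was 0.86 over the 11 fatty acid genes, 0.04 over the 15 cholesterol synthesis genes tested, 0.52 over the exporters and 0.11 over the 6 regulators, beside -0.01 over all genes tested.

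The library labelled HFpEF replicate 3 stood apart. Its mitochondrially encoded genes took 7.17% of recovered reads, against 20.1% to 22.6% in HFpEF replicates 1 and 2 and 24.0% to 26.0% in Chow. Without it, 8.35% of the genes tested passed an adjusted p of 0.05 (2.85% higher and 5.5% lower), and so did 4 of the 34 genes, namely Scd1, Fasn, Acaca and Scd2, all higher. An unadjusted p under 0.05 was then reached by 13 of the 34 (11 higher and 2 lower), against 25.2% of all genes tested (10.2% higher and 15.0% lower), and the medians were 0.84 for fatty acid genes, 0.09 for cholesterol synthesis, 0.20 for the exporters and 0.20 for the regulators. Recovered reads totalled 13076772 to 15574914 per Chow library and 13461735 to 16027084 per HFpEF library. In bulk tissue, fewer cells of a type and less RNA per cell cannot be told apart.

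**Figure D1:**
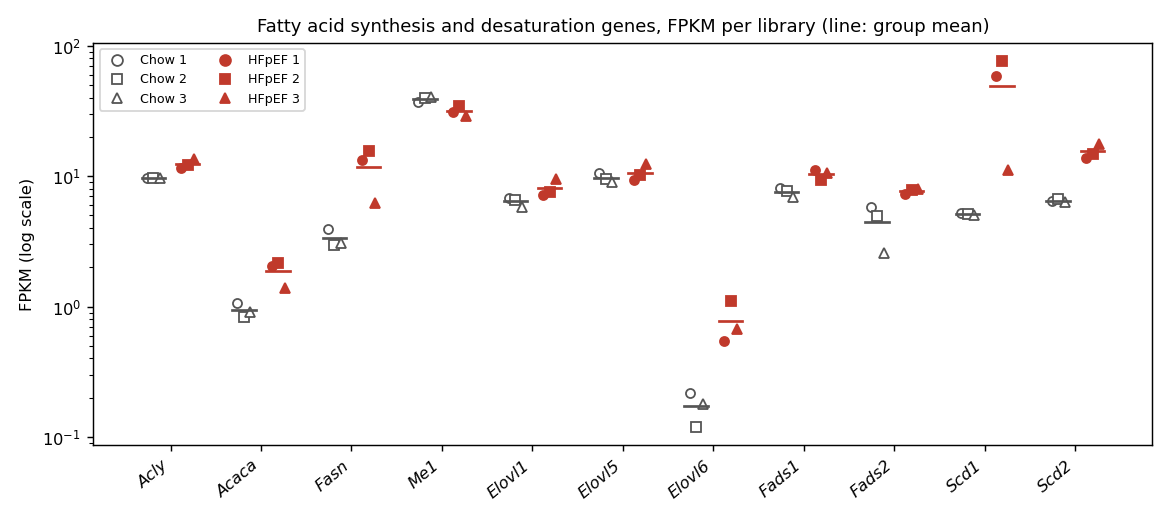
FPKM (log axis) of the 11 fatty acid synthesis and desaturation genes in each library, open symbols for Chow and filled symbols for HFpEF, with a line at each group mean. Scd1 and Fasn in HFpEF replicate 3 (triangles), at 11.1 and 6.28, lie between the Chow libraries and HFpEF replicates 1 and 2.

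Scd2 and Scd1 encode stearoyl-CoA desaturases, which turn saturated into monounsaturated fatty acyl-CoA. Scd2 (ENSMUSG00000025203, GRCm38 chromosome 19, 44293674 to 44306864) had FPKM of 6.44, 6.70 and 6.31 in Chow replicates 1 to 3 and 13.8, 14.9 and 17.7 in HFpEF replicates 1 to 3. It was the only listed gene past the test and rose in all 3 HFpEF libraries, with a mean of 15.5 ± 2.02 against 6.48 ± 0.198 (SD, n = 3 each). Its log2 fold change was 1.24 (standard error 0.12, 95% interval 0.95 to 1.52, adjusted p = 0.0333). The call was lost without HFpEF replicate 1 (adjusted p = 0.0672) and without any Chow library (adjusted p of 0.186 to 0.200), and also with a pseudocount of 1 or 0.01, no filter on low values, voom or a replicate block (adjusted p of 0.0505 to 0.194), which makes 9 settings in all, although the log2 fold change stayed between 1.13 and 1.49 in every alternative tried.

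Scd1 (ENSMUSG00000037071, chromosome 19, 44394455 to 44407879) was at 5.26, 5.10 and 5.04 in Chow and at 59.1, 76.5 and 11.1 in HFpEF. All HFpEF values exceeded all Chow values, but the excess over the Chow mean was 11.5-fold and 14.9-fold in replicates 1 and 2 and 2.16-fold in replicate 3. The log2 fold change of 2.82 (95% interval 1.18 to 4.46) was the largest among the 34 genes and did not pass the test (adjusted p = 0.119). Without HFpEF replicate 3 it was 3.69 (adjusted p = 0.000306). Scd1 shares 4.56% and Scd2 3.97% of its 50-base stretches with other Scd genes, so that a small share of their reads could be misplaced between them.

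The family as a whole was read from the summed FPKM of Scd1, Scd2, Scd3 and Scd4. Scd4, an isoform known from the heart, and Scd3 were chosen for this after their values were seen. The sum was 14.9, 16.2 and 20.0 in Chow and 76.0, 94.2 and 31.6 in HFpEF, without overlap (exact two-sided permutation p = 0.1, the smallest that 3 against 3 libraries allow). Scd1 made up 35.4%, 31.4% and 25.2% of the sum in Chow and 77.8%, 81.2% and 35.05% in HFpEF (exact permutation p = 0.2). The share of Scd1 in HFpEF replicate 3 was therefore inside the Chow range, where Scd2 instead held 56.0%. Scd4 itself was at 3.11, 4.33 and 8.49 in Chow and 3.04, 2.76 and 2.80 in HFpEF, and its share was 20.9% to 42.4% in Chow and 2.93% to 8.86% in HFpEF (exact permutation p = 0.1). Scd3 had at most 7 reads in any library.

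**Figure D2:**
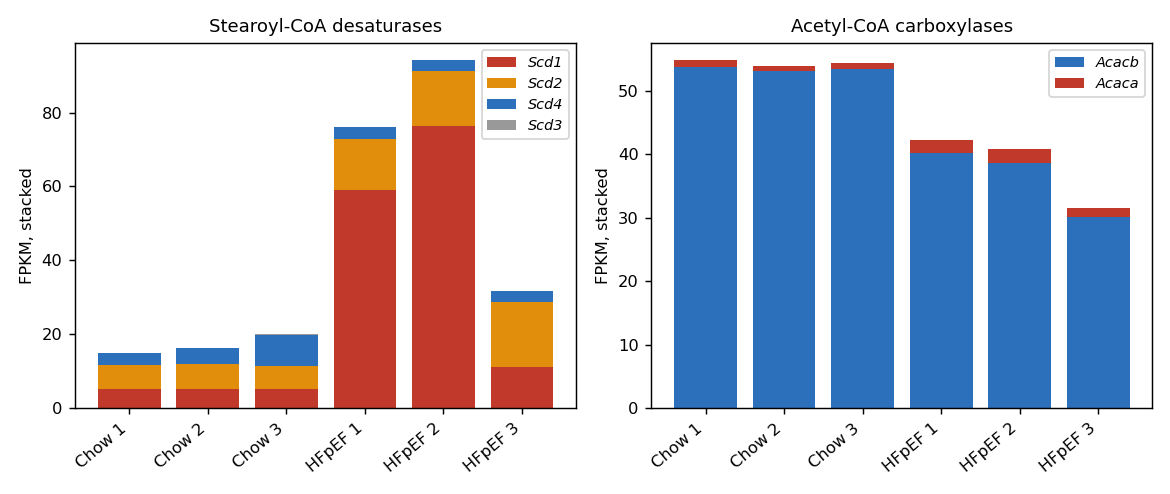
Stacked FPKM per library of the stearoyl-CoA desaturases (left) and of the acetyl-CoA carboxylases (right). The summed Scd level was 14.9 to 20.0 in Chow and 31.6 to 94.2 in HFpEF, and Acaca was at most 5.24% of the carboxylase sum in any library.

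Fasn (ENSMUSG00000025153, chromosome 11, 120805846 to 120824547) encodes fatty acid synthase, which builds palmitate. Its FPKM was 3.95, 2.99 and 3.07 in Chow and 13.3, 15.5 and 6.28 in HFpEF. All HFpEF values were above the Chow values, and replicate 3 was the lowest of them. The log2 fold change was 1.69 (standard error 0.34, 95% interval 0.88 to 2.50, adjusted p = 0.0994), and 2.08 without HFpEF replicate 3 (adjusted p = 0.00795).

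Acaca (ENSMUSG00000020532, chromosome 11, 84129672 to 84401651), the cytosolic acetyl-CoA carboxylase, was at 1.06, 0.830 and 0.910 in Chow and 2.06, 2.14 and 1.38 in HFpEF. Its groups did not overlap either, with HFpEF replicate 3 again the lowest of the HFpEF libraries (log2 fold change 0.90, 95% interval 0.36 to 1.44, adjusted p = 0.119). Other annotated genes share 30.4% of its 50-base stretches, so its level is uncertain. Acacb, the mitochondria-bound carboxylase, was far more abundant per length, at 53.8, 53.1 and 53.5 in Chow and 40.2, 38.7 and 30.2 in HFpEF (log2 fold change -0.57, adjusted p = 0.118). Acaca was 1.54% to 1.93% of the summed Acaca and Acacb FPKM in Chow and 4.38% to 5.24% in HFpEF (exact permutation p = 0.1).

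Fitted differences of the elongases ran from 0.12 to 1.65. Elovl6 (chromosome 3, 129532355 to 129638495), which extends palmitate to stearate, was scarce, at 0.218, 0.119 and 0.180 in Chow and 0.549, 1.10 and 0.676 in HFpEF. These values rest on 9 to 120 reads per library and did not overlap (log2 fold change 1.65, 95% interval 0.59 to 2.71, adjusted p = 0.123). The gene met the filter of 0.5 only through the HFpEF libraries, so this lack of overlap is no independent result. Here HFpEF replicate 3 lay between the other HFpEF libraries. Elovl1, the elongase of very long chains, was at 5.82 to 6.78 in Chow and 7.19 to 9.53 in HFpEF (log2 fold change 0.32), and Elovl5, which acts on polyunsaturated chains, was at 9.06 to 10.5 and 9.27 to 12.5, with overlap (log2 fold change 0.12).

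Fads1 and Fads2, the front-end desaturases that make long polyunsaturated fatty acids, were both without overlap. Fads2 (chromosome 19, 10062765 to 10101746) was at 5.82, 4.92 and 2.58 in Chow and 7.36, 7.83 and 7.96 in HFpEF, so that the spread lay among the Chow libraries (log2 fold change 0.86, adjusted p = 0.162, and 0.52 without Chow replicate 3). Fads1 (chromosome 19, 10182888 to 10196877) was at 8.05, 7.63 and 6.91 in Chow and 11.2, 9.33 and 10.5 in HFpEF (log2 fold change 0.45, adjusted p = 0.119).

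Acly and Me1 supply acetyl-CoA and NADPH, and neither passed the test. Acly, ATP citrate lyase, was at 9.69, 9.65 and 9.66 in Chow and 11.6, 12.2 and 13.7 in HFpEF (log2 fold change 0.36, adjusted p = 0.123). Me1, the cytosolic malic enzyme that yields NADPH, was the fatty acid gene with the highest Chow level, at 36.9, 39.5 and 40.5, and was lower in every HFpEF library, at 31.0, 34.6 and 28.8 (log2 fold change -0.31, adjusted p = 0.176). Me1 shares 28.3% of its 50-base stretches with other annotated genes. Of the 11 fatty acid genes, 10 were thus without overlap, 9 higher and 1 lower, where 35.3% of all genes tested were without overlap (15.5% higher and 19.8% lower). The 9 include Elovl6, which could be tested only because it was higher in HFpEF.

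**Figure D3:**
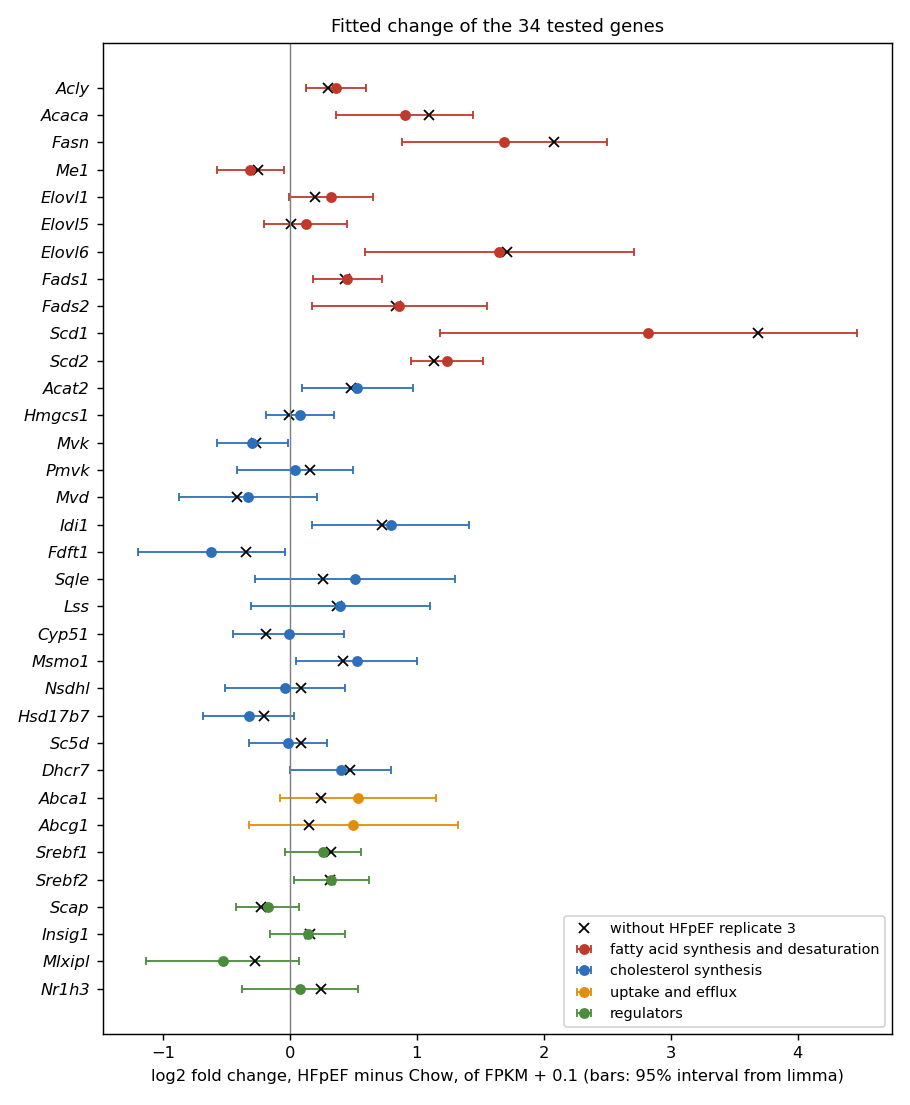
Log2 fold change of FPKM + 0.1, HFpEF minus Chow, of the 34 tested genes with 95% intervals from limma, coloured by role, with crosses for the fit without HFpEF replicate 3. Scd1, at 2.82, moved to 3.69 without that library, whereas Abca1 and Abcg1, at 0.53 and 0.50, moved to 0.24 and 0.15.

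Cholesterol synthesis begins with Acat2 and Hmgcs1, which condense acetyl-CoA into HMG-CoA. Hmgcs1 was at 7.11, 6.82 and 6.68 in Chow and 7.03, 6.67 and 8.17 in HFpEF, with overlap and a log2 fold change of 0.08 (95% interval -0.18 to 0.34). Acat2 was at 1.63, 1.44 and 2.15 in Chow and 2.55, 2.32 and 2.73 in HFpEF (log2 fold change 0.53, adjusted p = 0.167), but Acat3 and Tcp1 share 39.1% of its 50-base stretches, and its level is therefore uncertain.

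The mevalonate steps showed no common direction. Mvk, mevalonate kinase, was at 3.57, 3.70 and 3.21 in Chow and lower in every HFpEF library, at 2.94, 2.82 and 2.71 (log2 fold change -0.30, adjusted p = 0.198). Pmvk, the next kinase, was at 4.28 to 5.60 in Chow and 4.41 to 6.69 in HFpEF, and Mvd, the decarboxylase, at 2.27 to 3.70 and 2.10 to 2.78, both with overlap. Idi1, the isomerase of isopentenyl diphosphate, was at 0.902, 0.560 and 0.543 in Chow and 1.17, 1.11 and 1.34 in HFpEF, the largest fitted difference of the route (log2 fold change 0.80, 95% interval 0.18 to 1.41, adjusted p = 0.156). Idi1 rests on 23 to 91 reads and shares 25.3% of its 50-base stretches with other annotated genes.

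The lowest fitted difference of the 34 genes was that of Fdft1 (chromosome 14, 63145150 to 63179578), squalene synthase, at the branch to sterols. It was at 13.6, 14.4 and 11.6 in Chow and 10.8, 9.83 and 5.83 in HFpEF. All HFpEF values were below the Chow values, with replicate 3 the lowest (log2 fold change -0.62, 95% interval -1.19 to -0.04, adjusted p = 0.197, and -0.35 without that library). Fdft1 shares 26.5% of its 50-base stretches, some with Ctsb. Fdps, the synthase of farnesyl diphosphate, had 0 to 9 reads in every library and was not tested, with 26.2% of its 50-base stretches shared. How reads that fit several genes were counted is not given in the sources used here.

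The later steps run from squalene to cholesterol. Sqle, squalene epoxidase, was at 0.469, 0.462 and 0.522 in Chow and 0.624, 0.575 and 1.08 in HFpEF (log2 fold change 0.51, adjusted p = 0.373, and 0.26 without HFpEF replicate 3). Msmo1, a demethylating oxidase, was at 0.926, 0.847 and 1.05 in Chow and 1.36, 1.22 and 1.63 in HFpEF (log2 fold change 0.53, adjusted p = 0.188). Dhcr7, the last reductase before cholesterol, was at 1.28, 1.53 and 1.34 in Chow and 1.86, 2.06 and 1.65 in HFpEF (log2 fold change 0.40, adjusted p = 0.211). Sqle, Msmo1 and Dhcr7 were thus without overlap between groups and higher in HFpEF, and did not pass the test. Sqle reached the filter of 0.5 in Chow only in replicate 3. Its testing thus depended on its HFpEF levels, and its lack of overlap is no independent result. Lss, Cyp51, Nsdhl, Hsd17b7 and Sc5d, which cyclize squalene epoxide and trim the sterol, overlapped between groups, with log2 fold changes from -0.32 for Hsd17b7 to 0.40 for Lss. The levels of these 5 genes ran from 0.430 to 0.744 for Lss and from 4.45 to 7.06 for Hsd17b7 over the 6 libraries. Of the 15 cholesterol synthesis genes tested, 6 reached an unadjusted p under 0.05 (4 higher and 2 lower), and 7 were without overlap (5 higher and 2 lower), beside 23.4% and 35.3% of all genes tested.

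**Figure D4:**
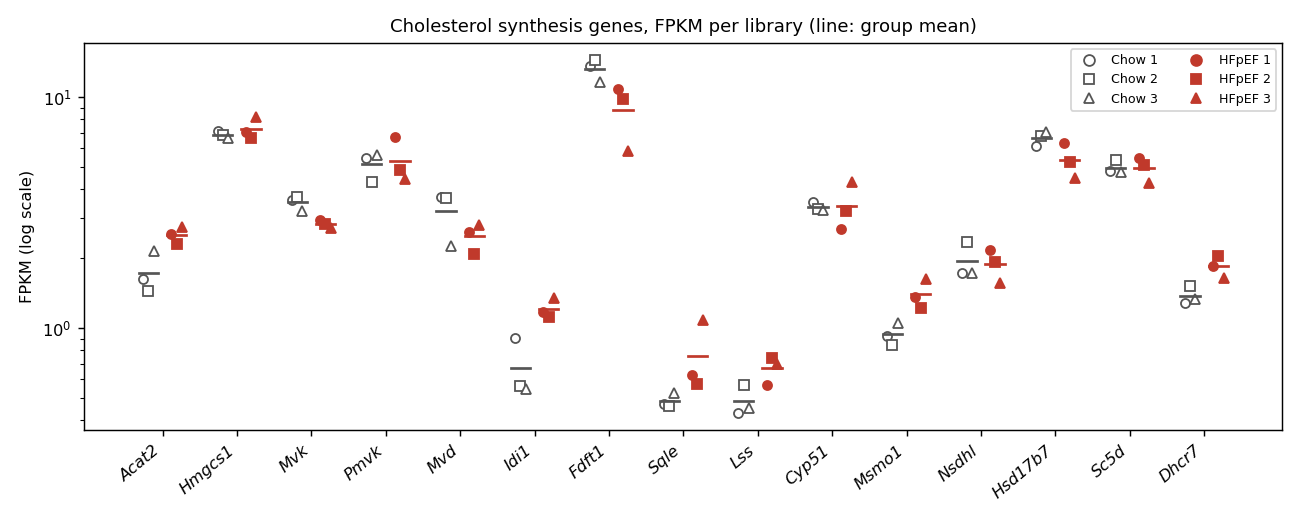
FPKM (log axis) of the 15 tested cholesterol synthesis genes in each library, open symbols for Chow and filled symbols for HFpEF, with a line at each group mean. Idi1 lay at 0.543 to 0.902 in Chow and 1.11 to 1.34 in HFpEF, and Fdft1 at 11.6 to 14.4 and 5.83 to 10.8.

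Abca1 and Abcg1 pass cholesterol from cells to lipoproteins and are targets of the liver X receptors. Abca1 was at 5.57, 6.43 and 6.49 in Chow and 6.61, 8.07 and 13.4 in HFpEF, and Abcg1 at 1.40, 2.20 and 2.28 in Chow and 2.18, 2.09 and 4.55 in HFpEF. In both genes HFpEF replicate 3 was by far the highest library, at 2.18-fold and 2.32-fold the Chow mean, while the other HFpEF libraries were at 1.07-fold to 1.31-fold of it. Neither passed the test (log2 fold changes 0.53 and 0.50, adjusted p = 0.260 and 0.398). The summed FPKM of 11 macrophage markers was also highest in that library, at 926 against 276 and 374 in HFpEF replicates 1 and 2 and 222 to 283 in Chow, with Lyz2 giving 534 of the 926. Cd163, named after its values were seen, was instead highest in HFpEF replicate 2. The part of these cells in the exporters' levels was not tested.

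Fitted differences of the 6 regulators ran from -0.53 to 0.33. Srebf2 was at 6.99, 6.47 and 5.36 in Chow and 7.92, 7.67 and 7.98 in HFpEF, the only regulator without overlap (log2 fold change 0.33, adjusted p = 0.187). Srebf1 was at 8.85, 8.07 and 7.28 in Chow and 10.9, 9.32 and 8.84 in HFpEF, where replicate 3 lay just inside the Chow range (log2 fold change 0.26, 95% interval -0.04 to 0.56). Mlxipl was at 3.83, 4.78 and 3.87 in Chow and 3.01, 3.87 and 1.95 in HFpEF (log2 fold change -0.53, 95% interval -1.13 to 0.07). For Scap, Insig1 and Nr1h3 the log2 fold changes were -0.17, 0.14 and 0.08, all with overlap between groups.

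Other genes of the same pathways, listed by role, were counted in the same fit. Of 65 listed genes 64 were found and 55 tested, of which 0 passed an adjusted p of 0.05 with limma and 18 had an unadjusted p under 0.05, 5 higher and 13 lower. The groups did not overlap for 26 of the 55, 7 higher and 19 lower. These are 32.7% and 47.3% of the 55. Over all genes tested the shares were 23.4% (10.2% higher and 13.1% lower) and 35.3% (15.5% higher and 19.8% lower). Among the other fatty acid and glycerolipid genes, Slc25a1, the mitochondrial citrate carrier that feeds Acly, was at 3.41, 4.30 and 2.79 in Chow and 6.70, 9.14 and 7.92 in HFpEF, and so was higher in all 3 HFpEF libraries by a like amount (log2 fold change 1.17, adjusted p = 0.0847). Gpam, which starts triglyceride assembly, was at 66.9, 77.1 and 73.6 in Chow and 46.9, 42.3 and 39.8 in HFpEF (log2 fold change -0.75, adjusted p = 0.0815), and Hacd1, a dehydratase of chain elongation, had a log2 fold change of -0.53. Of the 20 tested genes of this list, 11 were without overlap, 2 higher and 9 lower, beside 35.3% of all genes tested (15.5% higher and 19.8% lower).

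In the other lists, Acat1, the mitochondrial thiolase, had a log2 fold change of -0.69, Ebp, the sterol isomerase, of 0.17, and Lbr, a sterol reductase of the nuclear envelope, of -0.10. Among further regulators, Rnf139, a ubiquitin ligase of sterol control, was at -0.43, the coactivator Ppargc1b at -0.43, the partner receptor Rxra at -0.32 and Mlx, the partner of ChREBP, at -0.21. Among sterol transport genes, the endocytic receptor Lrp1 was at 1.08, the lipid carrier Apoe at 1.39, the cholesteryl ester hydrolase Nceh1 at -0.55 and the lipoprotein receptor Vldlr at -0.54. None of these passed the test. Apoe was at 346, 449 and 935 in HFpEF, so like Abca1 and Abcg1 it was highest in replicate 3.

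Adipocytes are a main site of fatty acid synthesis, and their markers were therefore set beside these genes. Of 12 adipocyte markers 10 were tested and 4 rose, namely Adipoq, Cfd, Cidec and Car3, beside 0.0914% of all genes tested. These 4 and Plin1 were at 0 to 0.0298 in Chow and met the filter only through the HFpEF libraries. They could thus be tested only if higher in HFpEF, which limits what their count shows. Adipoq, which encodes adiponectin, was at 0 in every Chow library and at 6.68, 6.24 and 1.91 in HFpEF, and the droplet protein gene Plin1 was at 0 to 0.0184 in Chow and 4.87, 5.17 and 1.11 in HFpEF. Adipoq, Cidec, Plin1 and Car3 were therefore highest in HFpEF replicates 1 and 2 and lowest of the HFpEF libraries in replicate 3, as were Scd1, Fasn and Acaca, whereas Scd2 was highest in replicate 3. Adipoq, Plin1, Cidec and Car3 were singled out after their values were seen. The most abundant of the 12, Lpl, Fabp4 and Plin4, which heart tissue also expresses, did not pass the test, with fitted differences of -0.64, -0.49 and -0.15. The summed FPKM of the 12 was 534 to 572 in Chow and 334 to 524 in HFpEF, and 5 of them were at 0 in every Chow library. Of 6 brown adipocyte markers 2 were tested, Cox8b and Cidea, and neither passed, with fitted differences of -0.94 and -0.28. The summed FPKM of the 6 was 628 to 919 in Chow and 299 to 481 in HFpEF. Cox8b alone was at 612, 726 and 899 in Chow and 457, 425 and 288 in HFpEF. It made up most of each sum, so the sum does not describe the list as a whole. Ucp1, the brown adipocyte protein gene, and Dio2 went the other way but were not tested. Ucp1 was at 0 in every Chow library and at 5.99, 8.33 and 0 in HFpEF. Dio2 was at 0.0846, 0.205 and 0.128 in Chow and 1.08, 0.376 and 0.507 in HFpEF. Zic1 and Lhx8 had at most 9 reads in any library. The part of adipocyte RNA in the levels of Scd1, Fasn and Acaca was not tested.

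**Figure D5:**
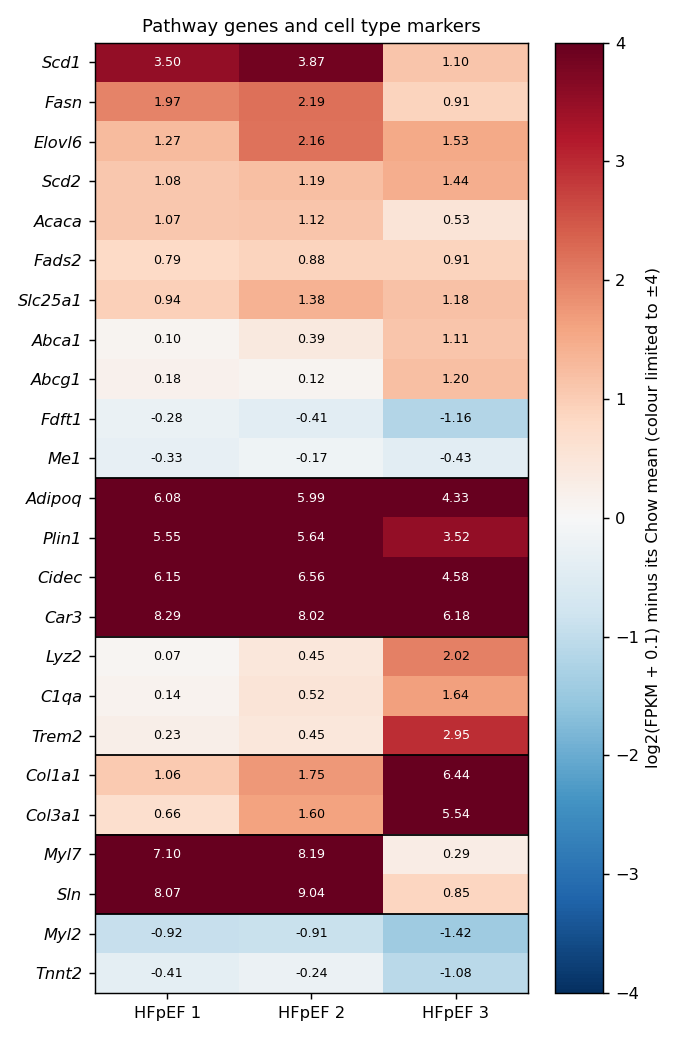
Difference of log2(FPKM + 0.1) in each HFpEF library from the Chow mean of the same quantity, for 10 of the 35 genes, Slc25a1 and markers of adipocytes, macrophages, fibroblasts, atrial and ventricular cardiomyocytes (blocks from top to bottom). Scd1 read 3.50, 3.87 and 1.10 and Adipoq 6.08, 5.99 and 4.33, lowest in HFpEF 3, while Abca1 read 0.10, 0.39 and 1.11 and Lyz2 0.07, 0.45 and 2.02, highest there.

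Other cell type markers also moved with the libraries. Liver markers summed to 1.23 to 4.06 in Chow and 26.3 to 34.7 in HFpEF, through Cyp2e1 and Hp, which rose, and Ahsg, while Alb and Fgb were at 0 in every library. Of the 9 listed 4 were tested, so the sum does not describe the list as a whole. Cyp2e1, at 0 to 0.0651 in Chow, met the filter only through the HFpEF libraries. Atrial markers (Myl7, Myl4, Sln and Nppa) summed to 13.3, 16.2 and 538 in Chow and 2300, 3835 and 20.6 in HFpEF. Within HFpEF, Scd1 and Fasn were in the same order over the libraries as these sums, highest in replicate 2 and lowest in replicate 3. Within Chow they were not, with Scd1 at 5.04 and Fasn at 3.07 in replicate 3, whose sum of 538 was still far below those of HFpEF replicates 1 and 2. Ventricular markers, which are at high levels in every library, summed to 15129 to 16643 in Chow. In HFpEF replicates 1 to 3 they summed to 10721, 11369 and 7235. That is the same order as Scd1, Fasn and the atrial sums, so the order is not particular to the atrial markers. With 3 libraries, an order is easily shared. Fibroblast markers summed to 220 to 259 in Chow and 424, 494 and 5521 in HFpEF, and Schwann cell markers to 28.4 to 31.6 and 45.9 to 47.9. The parts of these cells in the results were not tested.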

How the data were processed

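RNA-seq libraries from the hearts of 3 Chow and 3 HFpEF mice were used, grouped by the sample labels. The values deposited by the authors are FPKM, made from HISAT2 alignments and featureCounts gene counts, and the labels name the build as GRCm38 (mm10). FPKM times the union exon length of GENCODE M21 gave whole multiples of 1 step per library for 96.1% to 96.2% of values above 0 (relative tolerance 1e-06), from which reads were recovered. For 5 of the 35 genes (Fads1, Fads2, Scd1, Scd2 and Abcg1) the values were not whole in every library, and their reads are approximate. The further scaling in the deposited FPKM is not given in the sources used here.

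After median-of-ratios rescaling (factors 0.999 to 1.00) and a pseudocount of 0.1, log2 FPKM was fitted with limma for the 14227 genes that reached 0.5 in 3 or more libraries (lmFit, then trended and robust eBayes), with Benjamini-Hochberg adjustment over all genes tested. Fold changes on the log2(FPKM + 0.1) scale understate those of low genes. Shares were compared by exact permutation. Counts of 50-base stretches shared with transcripts of other genes were made on GENCODE M21, and promoter windows are from RefSeq (GRCm38.p6).

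The genes, lists and tests were chosen with earlier results of these data known. The text names all 35 genes, up to 4 genes of each further pathway list with the smallest unadjusted p, and up to 4 of the most abundant of each marker list, with genes outside this rule marked. A gene that the rule would name is not reported here. Alternatives were FPKM as deposited, quantile normalization, scaling without mitochondrial genes, a pseudocount of 1 or 0.01, leaving out the filter, a minimum FPKM of 1, eBayes without trend and robust options, voom on recovered reads, a replicate block, a log2 fold change of at least 1 and leaving out each library. On simulated data of 14222 genes for HFpEF against Chow, the fit called 63 of 200 genes changed by a log2 fold change of 1, 197 of 200 changed by 2 and 200 of 200 changed by 3, with 10, 13 and 20 unchanged genes called. The simulated reads had the same dispersion for every gene and no library that stood apart, and scarce genes were left unchanged. These rates therefore do not carry over to the deposited data, where HFpEF replicate 3 stood apart. Python 3.11.15 (numpy 2.4.6, pandas 2.3.3, scipy 1.17.1, matplotlib 3.10.9) and R 4.3.3 (limma 3.58.1) were used.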

Additional observations from a re-analysis of the deposited data

How the results depend on the processing

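With 3 libraries per group, the exact permutation test could not go below 0.1, and differences of low genes such as Elovl6, Sqle and Idi1 rest on few reads. Over the 34 genes, 541 log2 fold changes were recomputed under alternatives, of which 512 kept their direction and side of the threshold, 9 lost the call (all Scd2), 3 gained it (Scd1, Fasn and Acaca without HFpEF replicate 3) and 17 changed sign, for 7 genes. For Scd2 the adjusted p was 0.0630 with a pseudocount of 1, 0.0505 with 0.01, 0.0566 without a filter and 0.0596 with voom, and over all settings it ran from 0.00795 to 0.200. The count of the 34 genes with an adjusted p under 0.05, 1 as reported, was 0 in each of those 4 settings and 0 to 4 when 1 library was left out. With an unadjusted p under 0.05 it was 8 to 13 when 1 library was left out, against 16.

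Replicate numbers are shared by the groups. Same-numbered libraries did not deviate together (correlations of deviations -0.04, -0.07 and -0.06), which gave no sign of pairing. These deviations are from means of 3 libraries, and HFpEF replicate 3 stood apart, so the correlations cannot exclude pairing. With the replicate block, 0 of the 34 genes and 2 of all genes passed, the latter at a log2 fold change of at least 2 (8 without the block), and the adjusted p of Scd2 was 0.194.

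That count of 8 genes was 24 with scaling without mitochondrial genes, 2 with a pseudocount of 1, 3 with 0.01, 5 with an FPKM minimum of 1, 19 without trend and robust options, 0 with voom, 14 at a log2 fold change of at least 1 and 2 to 59 when 1 library was left out (59 without HFpEF replicate 3). Under voom 3351 genes had an unadjusted p under 0.05. That number was 3323 as reported, and 1912 to 3583 when 1 library was left out.

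The median of the fatty acid genes, 0.86, was 1.11 with scaling without mitochondrial genes, 0.56 with a pseudocount of 1, 0.66 with an FPKM minimum of 1 and 0.52 to 0.99 when 1 library was left out (0.52 without Chow replicate 3). Elovl6 is not among the genes tested at an FPKM minimum of 1. Scaling without mitochondrial genes also gave medians of 0.29 for cholesterol synthesis and 0.36 for regulators. It moved the median of all genes by 0.25, and relative to that median the 3 values were 0.88, 0.06 and 0.13, against 0.87, 0.05 and 0.12 as reported. Of the genes with an unadjusted p under 0.05 it left 3650 higher and 608 lower, against 1454 and 1869. The regulator median was 0.037 to 0.20 when 1 library was left out.

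Changes of sign all concerned small values. Under scaling without mitochondrial genes, Cyp51 was at 0.24, Nsdhl at 0.20, Sc5d at 0.24 and Scap at 0.075, in the setting that moved the median of all genes by 0.25. Pmvk was at -0.0040 with quantile normalization and Cyp51 at 0.011 with voom. When 1 library was left out, Hmgcs1 ran from -0.0040 to 0.14, Pmvk from -0.14 to 0.16, Cyp51 from -0.18 to 0.14, Nsdhl from -0.14 to 0.10, Sc5d from -0.088 to 0.087 and Nr1h3 from -0.12 to 0.24. The causes were not tested.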
